A study of Mus musculus with 51 samples.

Results

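Collagens, laminins, fibrillins, fibulins and the small proteins that bind collagen fibrils build the fibrous matrix and the basement membranes of the limb bud. A named list of 43 such genes was described across limb stages, between forelimb and hindlimb, and beside whole embryo. Of these, 41 had a probe set assigned to a single gene symbol, among 18194 genes measured in all. Fbn1 had no such probe set, and both probe sets of Loxl2 also carry the symbol Gm21451, so neither gene entered the comparisons. The RNA came from FVB mice, either from whole forelimb or hindlimb buds or from an entire embryo, and was read on 51 Affymetrix arrays, with 1 embryo behind each array and no treatment or altered allele named. The 5 daily stages from E9.5 to E13.5 held, in order, 3, 5, 4, 5 and 5 forelimb arrays and 2 whole-embryo arrays each. Hindlimb, sampled from E10.5 on, had 4, 5, 5 and 5 arrays. Littermates served as the limb replicates at each stage, so that stage and litter cannot be told apart. The paper counts 5 embryos behind the limb samples, so a forelimb and a hindlimb array of a stage can share an embryo. Which arrays do is not stated, and the limbs were fitted as separate, unpaired groups. Levels are given as log2 intensity averaged over all probe sets that carry the gene's symbol, and since probes differ in response, no gene's level was set against that of another.

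Fibrillar collagens form the tensile fibres of connective tissue, and their fibrils are nucleated, spaced and decorated by minor collagens and by small leucine-rich proteoglycans such as lumican, biglycan and osteoglycin. Lysyl oxidases cross-link collagen and elastin, while fibrillins, fibulins and elastin make the elastic fibres. Basement membranes are sheets of laminin and collagen IV held together by nidogens and perlecan, and in the limb bud they underlie the ectoderm and wrap vessels, muscle and nerve. The interval studied takes the limb from a bud of loosely packed mesenchyme to one with cartilage, tendon and muscle anlagen.

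The labelled tissues were checked first. Tbx5 and Tbx4, which mark forelimb and hindlimb, separated the limbs on every array according to the titles, also on 2 arrays whose remaining labels name another limb or stage. These 2 arrays carry the titles of hindlimb E11.5 replicate 5 and forelimb E12.5 replicate 5 and were placed by title. The arrays fell into 2 technical sets. On the 13 arrays of whole embryo and E9.5 forelimb the Dap spike-in control lay between 10.71 and 13.29 and the 3' probe set of Gapdh exceeded the 5' one by 1.48 to 2.85. On the 38 limb arrays of E10.5 to E13.5 these values were 3.04 to 3.63 and -0.10 to 0.16. Comparisons among these 38 limb arrays, and comparisons among the other 13, therefore stay within a set, whereas a comparison of limb with whole embryo at E10.5 or later runs across them, and there tissue and array set cannot be told apart. In hindlimb E10.5 replicate 3 the mean of 5 neuron markers was 7.62, against 4.71, 4.91 and 5.14 in the other arrays of the group. The count between the limbs at E10.5 and the hindlimb rise of Col25a1 are also given without this array. Among the hindlimb calls from E10.5 to E13.5, only that of Col25a1 was lost without it.

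From E10.5 to E13.5 most genes of the fibrous matrix rose in both limbs, while most genes of the basement membrane changed less than 2-fold. A gene was called where it changed at least 2-fold at a Benjamini-Hochberg adjusted p under 0.001 in limma, fitted over all groups and genes. In forelimb 24 of the 41 genes were called higher and 1 lower, where 5.43% and 5.13% of all genes were. In hindlimb 25 were called higher and 1 lower, against 5.99% and 5.16% of all genes. The median change of the 41 genes was 1.38 on the log2 scale in forelimb and 1.70 in hindlimb, beside medians of -0.03 and -0.08 over all genes. Of the called genes 24 were shared by both limbs, Lama4 was called in forelimb alone, and Col23a1 and Col25a1 in hindlimb alone. RNA came from whole buds, so a larger share of matrix-making cells and more matrix RNA per cell cannot be told apart.

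**Figure D1:**
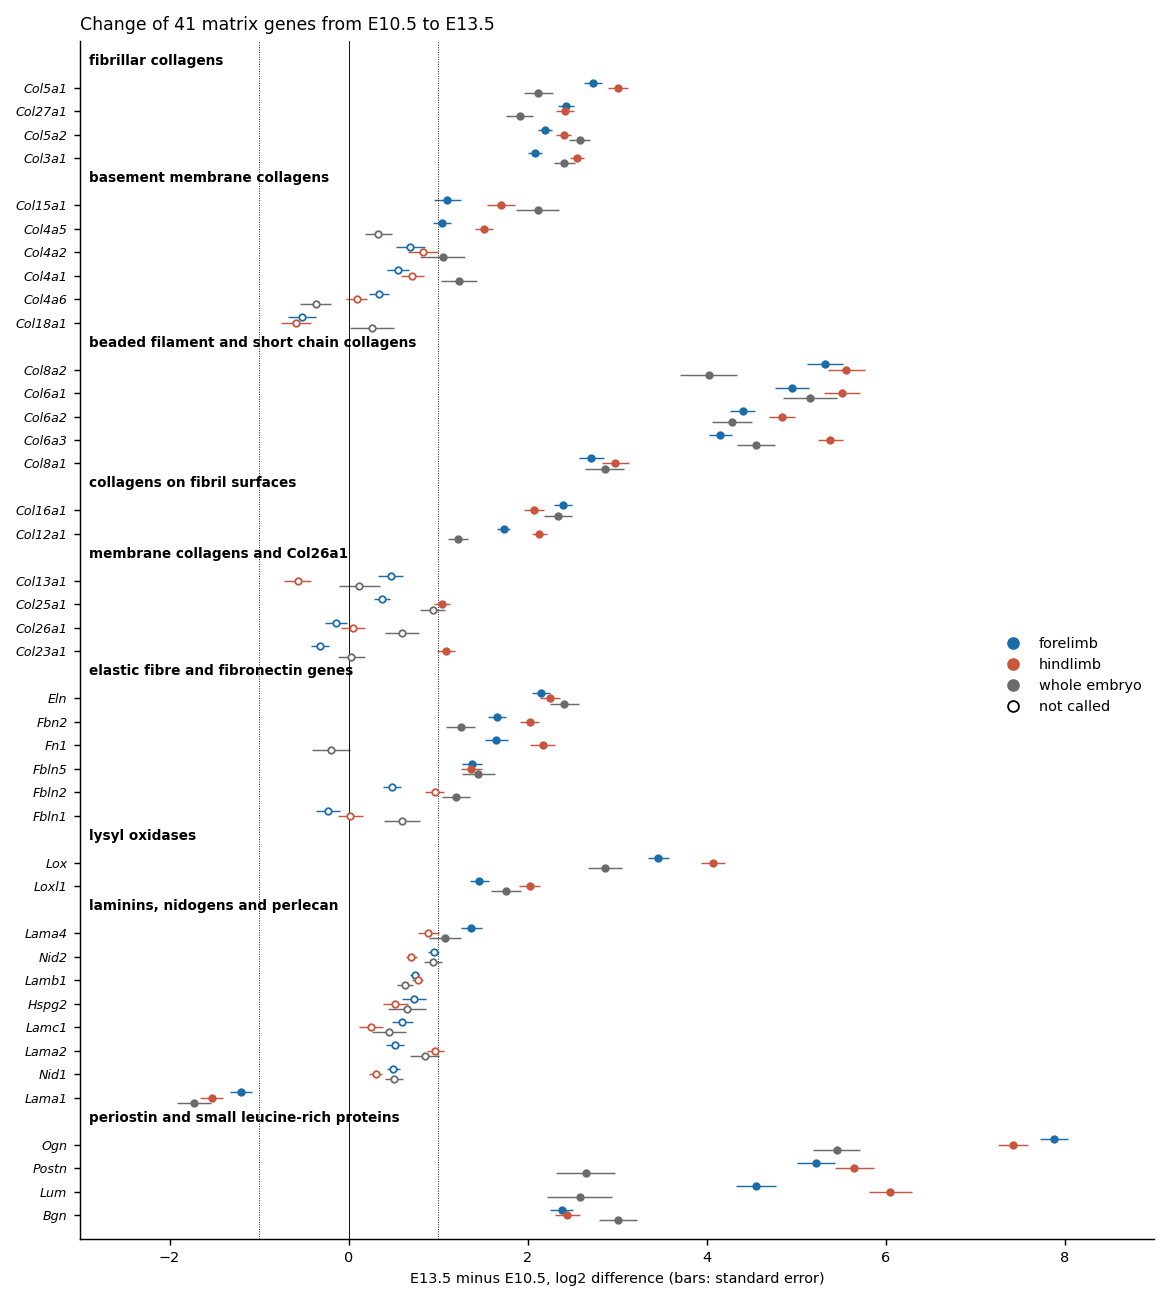
Difference in log2 level between E13.5 and E10.5 for the 41 genes, grouped by role, with the standard error of the fit as bars; blue is forelimb (5 against 5 arrays), red hindlimb (5 against 4) and grey whole embryo (2 against 2). Filled points were called and open points were not, and the dotted lines mark a 2-fold change. The beaded filament collagens, periostin, lumican and osteoglycin lie farthest to the right, up to 7.88 for Ogn in forelimb, the laminins and nidogens stay near or below 1 apart from Lama4 (1.37 in forelimb), and Lama1 alone is called lower.

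Ogn (osteoglycin) showed the widest change of the 41 genes in either limb. It read 3.92, 4.01, 4.11, 4.47 and 4.69 in the forelimb at E10.5, and 12.06, 12.08, 12.11, 12.14 and 12.19 at E13.5. In hindlimb it read 4.08, 4.12, 4.14 and 4.35 at E10.5 and 11.47, 11.48, 11.60, 11.64 and 11.79 at E13.5. The stages lie far apart in either limb, and every E10.5 value is below the median of all probe set values, 5.31, so that the fold change is counted from a level that may be background. The difference was 7.88 ± 0.16 (SE, 235-fold, adjusted p = 3.29e-34) in forelimb and 7.42 ± 0.17 (171-fold, adjusted p = 4.48e-32) in hindlimb. Postn encodes periostin, a matricellular protein of periosteum and tendon. It rose from 6.98, 7.24, 7.47, 7.58 and 7.88 in the forelimb to 12.64, 12.67, 12.69 and 12.77 on 4 arrays, with replicate 1 just below these, by 5.22 ± 0.21 (37.4-fold). In hindlimb it rose from 6.56, 6.88, 6.89 and 7.28 to 12.33, 12.56, 12.57, 12.60 and 12.69, by 5.65 ± 0.22 (50.1-fold). Neither limb had an E10.5 array near its E13.5 arrays. Lum (lumican), which limits the width of collagen fibrils, rose by 4.55 ± 0.22 in forelimb and 6.05 ± 0.24 in hindlimb. Bgn (biglycan) rose by 2.38 ± 0.13 and 2.44 ± 0.14, to a mean of 10.38 ± 0.15 (SD, n = 5) in forelimb at E13.5.

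The promoter windows of Ogn and Postn are printed here because these genes were among the 3 with the widest changes in forelimb. They come from the RefSeq table (build GRCm38.p6), run 5' to 3' along the gene from 250 bases before to 50 bases after the start, and lie at chr13:49607765-49608064 (plus strand) for Ogn and at chr3:54360857-54361156 (plus strand) for the second of the windows listed for Postn. Capitals mark matches, on either strand, to the TATA box TATAAA, the CCAAT box CCAAT or the GC box GGGCGG.
Ogn: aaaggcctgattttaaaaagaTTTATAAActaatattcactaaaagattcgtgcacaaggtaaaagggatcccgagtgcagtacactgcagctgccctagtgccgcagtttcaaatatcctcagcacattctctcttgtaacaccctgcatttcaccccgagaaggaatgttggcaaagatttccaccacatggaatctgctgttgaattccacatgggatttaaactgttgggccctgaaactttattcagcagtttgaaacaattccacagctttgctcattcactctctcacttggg
Postn: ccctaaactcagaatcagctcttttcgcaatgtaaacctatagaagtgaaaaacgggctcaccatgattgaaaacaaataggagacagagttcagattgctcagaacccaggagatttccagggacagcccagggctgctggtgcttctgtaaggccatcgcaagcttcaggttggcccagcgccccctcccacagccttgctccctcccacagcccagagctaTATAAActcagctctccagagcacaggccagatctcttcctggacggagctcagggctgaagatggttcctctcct
The Ogn window held 2 TATAAA matches, on opposite strands and overlapping, and the Postn window 1, and neither held a CCAAT or GC box. Of all 32851 windows in the table, 13.6% held a TATA box, 37.4% a CCAAT box and 35.7% a GC box. Of the 41 genes 28 had a window. The full list, in which Fbn1 and Loxl2 were searched too, gave 34 windows, and 4 (11.8%), 10 (29.4%) and 23 (67.6%) of these held the 3 motifs. A match is a description of letters only.

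All 5 collagens of beaded filaments and short chains rose. The 3 chains of collagen VI, which assemble into a microfilament around cells, moved together. Col6a1 read 6.05, 6.13, 6.21, 6.24 and 6.80 in forelimb at E10.5 and 11.08, 11.22, 11.23, 11.31 and 11.36 at E13.5, a rise of 4.95 ± 0.19 (31-fold). Col6a2 rose by 4.40 ± 0.14 (21.1-fold) and Col6a3 by 4.15 ± 0.13 (17.8-fold) in forelimb. In hindlimb the rises were 5.51 ± 0.20, 4.84 ± 0.15 and 5.38 ± 0.14. Col8a2, a chain of the short collagen VIII of vessel walls, rose by 5.32 ± 0.20 (39.9-fold) in forelimb and 5.56 ± 0.21 (47.3-fold) in hindlimb. Its E10.5 arrays, at 3.80 to 4.80 in forelimb and 3.71 to 4.29 in hindlimb, lay below the median of 5.31 like those of Ogn, so these folds too start from a level that may be background. Its partner Col8a1 rose by 2.71 ± 0.14 and 2.98 ± 0.15, and by 3.87 ± 0.19 in forelimb on its brightest probe set.

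The 4 fibrillar collagens and the 2 collagens of fibril surfaces were called higher in both limbs. Col5a1 and Col5a2, chains of the collagen V that starts fibrils, rose by 2.73 ± 0.10 and 2.19 ± 0.08 in forelimb, and by 3.01 ± 0.11 and 2.40 ± 0.08 in hindlimb. Col3a1, the collagen of elastic and early connective tissue, rose by 2.08 ± 0.08 and 2.55 ± 0.08. Col27a1, a fibrillar collagen of cartilage, rose by 2.43 ± 0.09 and 2.42 ± 0.10. The standard errors use a spread pooled over all groups of the fit, not only the groups compared. The forelimb arrays of Col3a1 lay between 10.86 and 11.15 at E10.5 and between 12.98 and 13.17 at E13.5. Col16a1 and Col12a1, which sit on the surface of fibrils, rose by 2.39 ± 0.10 and 1.73 ± 0.07 in forelimb and by 2.07 ± 0.11 and 2.13 ± 0.08 in hindlimb.

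Lysyl oxidase and most elastic fibre genes rose with them. Lox read 5.25, 5.31, 5.41, 5.51 and 5.63 at E10.5 and 8.65, 8.75, 8.83, 9.07 and 9.12 at E13.5 in forelimb, a rise of 3.46 ± 0.12 (11-fold), and it rose by 4.07 ± 0.13 (16.7-fold) in hindlimb. Loxl1, which acts on elastin, rose by 1.46 ± 0.11 and 2.02 ± 0.12. Eln (elastin) rose by 2.15 ± 0.10 and 2.25 ± 0.11, Fbn2 (fibrillin of embryonic microfibrils) by 1.66 ± 0.10 and 2.02 ± 0.11, and Fbln5, which ties elastin to cells, by 1.38 ± 0.11 and 1.37 ± 0.12. Fn1 (fibronectin) rose by 1.65 ± 0.13 and 2.17 ± 0.14. Fbln1 and Fbln2 were not called, with differences of -0.23 and 0.48 in forelimb and 0.02 and 0.96 in hindlimb. Averaging with a dimmer probe set shrank several of these values. On the brightest probe set alone the forelimb rise was 4.95 ± 0.18 for Lox, 3.30 ± 0.13 for Eln, 2.43 ± 0.12 for Fbln5, 2.34 ± 0.14 for Loxl1 and 2.83 ± 0.14 for Col12a1. On that probe set Fbln2 was called higher in both limbs, by 1.12 ± 0.15 (adjusted p = 7.5e-09) and 2.01 ± 0.15 (adjusted p = 3.13e-15).

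Among the 6 collagens of the basement membrane, Col15a1 and Col4a5 were called. Col15a1, found where basement membranes meet fibrils, rose by 1.10 ± 0.15 in forelimb and 1.70 ± 0.16 in hindlimb. Col18a1, the source of endostatin, differed by -0.52 ± 0.16 and -0.59 ± 0.17 and was not called. The 4 collagen IV chains come from 2 head-to-head gene pairs. Their promoter windows are shown because the genes of a pair are transcribed away from each other. The window of Col4a1 is chr8:11312777-11313076 (minus strand), that of Col4a2 chr8:11312555-11312854 (plus strand), that of Col4a5 chrX:141475169-141475468 (plus strand) and that of Col4a6 chrX:141474027-141474326 (minus strand), with source, orientation and capitals as above.
Col4a1: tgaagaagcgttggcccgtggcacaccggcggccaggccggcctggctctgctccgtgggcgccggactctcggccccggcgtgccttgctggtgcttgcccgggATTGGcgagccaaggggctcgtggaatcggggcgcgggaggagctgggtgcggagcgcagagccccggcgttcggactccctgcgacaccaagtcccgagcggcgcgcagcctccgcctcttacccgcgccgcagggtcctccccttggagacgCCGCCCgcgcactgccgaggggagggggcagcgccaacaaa
Col4a2: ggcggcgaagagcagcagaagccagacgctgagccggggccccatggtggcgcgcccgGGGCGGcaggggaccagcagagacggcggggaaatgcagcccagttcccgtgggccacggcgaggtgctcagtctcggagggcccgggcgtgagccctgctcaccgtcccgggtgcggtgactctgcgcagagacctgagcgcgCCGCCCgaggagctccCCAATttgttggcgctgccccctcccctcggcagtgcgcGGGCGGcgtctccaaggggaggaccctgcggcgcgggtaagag
Col4a5: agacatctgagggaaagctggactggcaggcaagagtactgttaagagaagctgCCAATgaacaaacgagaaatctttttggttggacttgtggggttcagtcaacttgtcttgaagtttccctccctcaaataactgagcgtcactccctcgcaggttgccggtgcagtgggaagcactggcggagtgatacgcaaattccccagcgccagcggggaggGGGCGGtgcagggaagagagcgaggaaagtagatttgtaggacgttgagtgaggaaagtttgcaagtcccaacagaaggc
Col4a6: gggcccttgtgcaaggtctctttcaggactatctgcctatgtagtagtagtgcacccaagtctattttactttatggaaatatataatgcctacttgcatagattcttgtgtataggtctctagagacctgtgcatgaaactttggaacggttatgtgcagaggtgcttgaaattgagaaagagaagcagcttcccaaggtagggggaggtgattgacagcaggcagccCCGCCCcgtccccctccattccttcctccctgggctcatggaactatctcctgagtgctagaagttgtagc
The windows of Col4a1 and Col4a2 overlap by 78 bases read from opposite strands, with start sites 21 bases apart, and held 1 and 3 GC boxes. The start sites of Col4a5 and Col4a6 are 1343 bases apart and their windows do not overlap. Col4a1 and Col4a2, the chains of nearly every basement membrane, gave nearly the same changes: 0.55 ± 0.12 and 0.69 ± 0.16 in forelimb, and 0.71 ± 0.13 and 0.83 ± 0.17 in hindlimb, all under 2-fold. In the forelimb Col4a1 lay between 10.28 and 10.85 at E10.5, between 10.18 and 10.45 at E11.5, between 10.18 and 10.54 at E12.5 and between 11.02 and 11.20 at E13.5. Nearly all of the rise thus came after E12.5, and the E13.5 arrays overlap with none of the earlier ones. In the other pair, Col4a5 was called in both limbs and Col4a6 in neither. Col4a5 rose by 1.04 ± 0.10 (adjusted p = 1.18e-12) in forelimb, falling under 2-fold (0.99) without forelimb E10.5 replicate 2, and 1.51 ± 0.10 (adjusted p = 6.9e-17) in hindlimb. Col4a6 differed by 0.34 ± 0.11 and 0.09 ± 0.12 and overlapped between stages in both limbs. The difference between the 2 genes of a pair was not tested.

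The laminins, nidogens and perlecan held the only fall. Lama1, the alpha chain of the early embryonic laminin, read 6.78, 6.93, 7.20, 7.20 and 7.21 in forelimb at E10.5 and 5.64, 5.82, 5.88, 5.96 and 6.02 at E13.5, and fell by 1.20 on the log2 scale (SE 0.12, adjusted p = 1.63e-11). In hindlimb it read 7.15, 7.16, 7.17 and 7.82 at E10.5, and fell by 1.53 (SE 0.13, adjusted p = 7.91e-14). The hindlimb value of 7.82 is that of replicate 3, the array with the neuron markers. Lama4, the alpha chain of vessel laminins, rose by 1.37 ± 0.12 (adjusted p = 8.2e-14) in forelimb and differed by 0.89 ± 0.12 in hindlimb, under the fold threshold there. On the brightest probe set Lama4 was called in hindlimb too, at 1.70 ± 0.10. Lamb1 and Lamc1, the beta and gamma chains that most laminins share, differed by 0.74 ± 0.05 and 0.60 ± 0.12 in forelimb and by 0.77 ± 0.06 and 0.25 ± 0.13 in hindlimb, and on its brightest probe set Lamb1 passed 2-fold at 1.02 ± 0.08 and 1.08 ± 0.08. Nid1 and Nid2, the nidogens that bridge laminin and collagen IV, differed by 0.50 ± 0.07 and 0.95 ± 0.06 in forelimb and by 0.30 ± 0.07 and 0.70 ± 0.06 in hindlimb. Lama2, the alpha chain of muscle laminin, differed by 0.52 and 0.97, and Hspg2 (perlecan) by 0.73 and 0.52. Of these 7 genes other than Lama1, all had positive differences in both limbs, and 1 passed 2-fold.

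The transmembrane collagens and Col26a1 followed no common course. Col23a1 differed by -0.32 ± 0.10 in forelimb, where the E10.5 arrays (8.24 to 8.49) lay above the E13.5 arrays (7.87 to 8.13) without a call, and rose by 1.09 ± 0.10 in hindlimb. Col25a1 differed by 0.37 ± 0.09 in forelimb and rose by 1.04 ± 0.09 in hindlimb, under 2-fold (0.94) without hindlimb E10.5 replicate 3. Col13a1 differed by 0.47 ± 0.14 in forelimb and by -0.57 ± 0.15 in hindlimb, without a call in either. Col26a1 differed by -0.14 and 0.05.

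**Figure D2:**
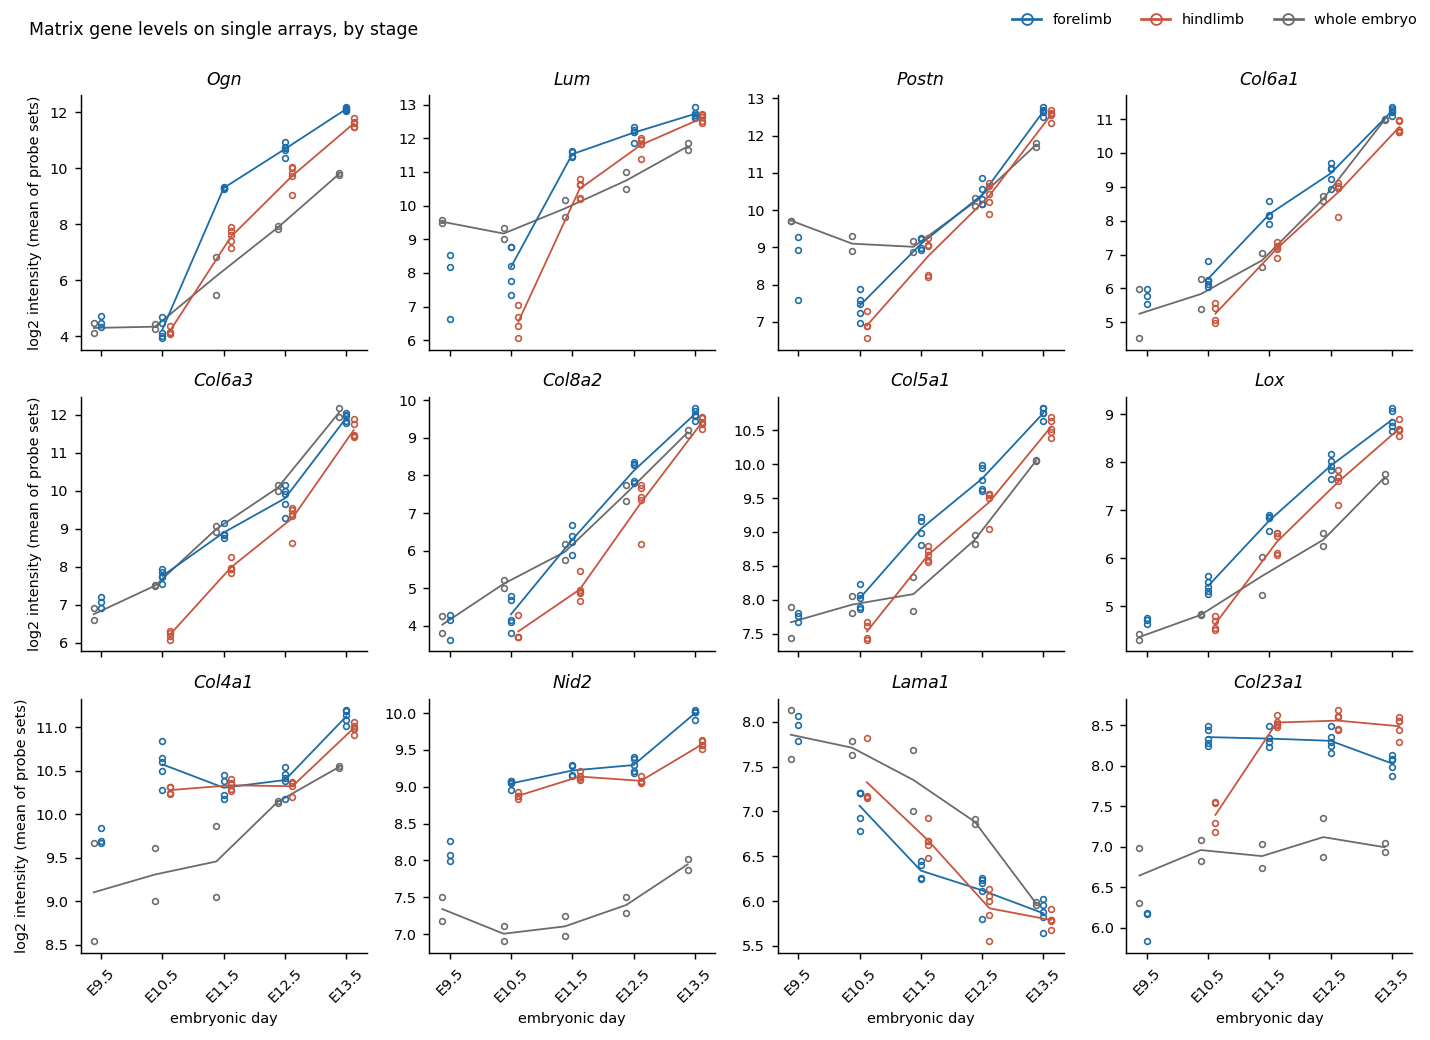
Log2 intensity (vertical axis, mean of a gene's probe sets) by embryonic day for 12 genes; each open circle is 1 array, blue forelimb, red hindlimb and grey whole embryo, shifted sideways to keep them apart, and lines join group means, with E9.5 forelimb left unjoined because it belongs to the other array set. Ogn leaves its E10.5 level of 3.92 to 4.69 in forelimb by E11.5, Col6a3 rises at each step, Lama1 falls, and Col23a1 in hindlimb meets forelimb by E11.5.

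Step by step, 10 genes were called higher in forelimb from E10.5 to E11.5 and 0 lower (1.71% and 0.363% of all genes), 5 and 0 from E11.5 to E12.5 (0.599% and 0.165%), and 12 and 0 from E12.5 to E13.5 (1.42% and 1.29%). In hindlimb the counts were 13 higher and 1 lower (1.95% and 0.368%), 8 and 0 (0.583% and 0.242%), and 14 and 0 (1.55% and 0.396%). Among the 24 genes called in both limbs over the whole interval, the widest step was the first for 10 genes in each limb and the last for 13 genes in forelimb and 11 in hindlimb.

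The early step was led by Ogn and Lum. Ogn was already at 9.27, 9.28, 9.29 and 9.33 in forelimb at E11.5, a rise of 5.05 ± 0.17 (33.2-fold) within that step, and at 7.14, 7.40, 7.60, 7.74 and 7.90 in hindlimb, a rise of 3.38 ± 0.17 (10.4-fold). Lum rose by 3.35 ± 0.24 (10.2-fold) in forelimb and 3.95 ± 0.24 (15.4-fold) in hindlimb. Both genes thus gained most of their change before E11.5 in forelimb. Col8a1 rose by 2.80 ± 0.15 and 2.13 ± 0.15 in this step, Col6a2 by 1.92 ± 0.15 and 1.81 ± 0.15, and Lox by 1.36 ± 0.13 and 1.70 ± 0.13. Col5a1 rose by 1.03 ± 0.11 in forelimb, a call lost in 4 of 9 fits that leave out 1 array, and by 1.13 ± 0.11 in hindlimb. Called in hindlimb alone were Col23a1 (1.14 ± 0.10), Col25a1 (1.03 ± 0.09) and Loxl1 (1.30 ± 0.12), and Col13a1 fell there by 1.20 (SE 0.15).

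From E11.5 to E12.5 Col6a1, Col8a2, Lox, Postn and Ogn were called in both limbs. Col8a2 rose by 1.83 ± 0.21 in forelimb and 2.31 ± 0.20 in hindlimb, and Ogn by 1.40 ± 0.17 and 2.17 ± 0.16. In hindlimb Col6a2 (1.40 ± 0.14), Col6a3 (1.29 ± 0.13) and Lum (1.31 ± 0.22) were called as well. The same 5 forelimb genes were called with both arrays of conflicting labels left out, and 0 with both placed by their other labels.

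Elastin, fibronectin and Col27a1 were among the genes called in both limbs in the last step. Fn1 rose by 1.38 ± 0.13 in forelimb and 1.57 ± 0.13 in hindlimb, on its brightest probe set by 0.64 and 0.78, which is under 2-fold. Eln rose by 1.25 ± 0.10 and 1.36 ± 0.10, Col27a1 by 1.26 ± 0.09 and 1.34 ± 0.09, and Col16a1 by 1.45 ± 0.10 and 1.27 ± 0.10. Postn had its widest step here, at 2.24 ± 0.21 and 2.16 ± 0.21, as had Col6a3 at 2.11 ± 0.13 and 2.31 ± 0.13. Col6a1, Col6a2, Col8a2, Ogn, Col5a2 and Bgn were called in both limbs too, between 1.01 and 2.15, and Col5a1 (1.10) and Lox (1.12) in hindlimb alone. Of the calls in this step, Col5a2 (1.01) and Bgn (1.04) in forelimb lay just above 2-fold and fell under it on the brightest probe set, at 0.95 and 0.89.

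Forelimb and hindlimb of the same stage differed most at E10.5 and E11.5. The paper describes hindlimb development as delayed relative to forelimb, so limb type and maturity cannot be told apart in comparisons between the limbs. At E10.5 forelimb was higher for 3 genes and lower for 0, where 0.418% and 0.148% of all genes were called. At E11.5 it was higher for 3 and lower for 0 (0.313% and 0.0989%), and at E12.5 (0.462% and 0.0440%) and E13.5 (0.236% and 0.0495%) for 0 in either direction, although at an unadjusted p under 0.05 in limma 19 genes were higher and 1 lower at E12.5 (13.02% and 10.99% of all genes), and 16 and 2 at E13.5 (7.96% and 9.47%). The signs leaned one way: of the 41 genes, 36, 33, 36 and 33 were higher in forelimb at the 4 stages in order, beside 42.8%, 49.8%, 52.9% and 49.7% of all genes. The median difference was 0.37, 0.22, 0.20 and 0.15. By the adjusted p under 0.05 alone, with no fold, forelimb was higher for 20 genes and lower for 2 at E10.5 (7.94% and 6.08% of all genes), and then in stage order for 14 and 0 (3.17% and 1.20%), for 13 and 0 (6.02% and 3.92%), and 8 and 1 at E13.5 (3.19% and 3.27%).

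**Figure D3:**
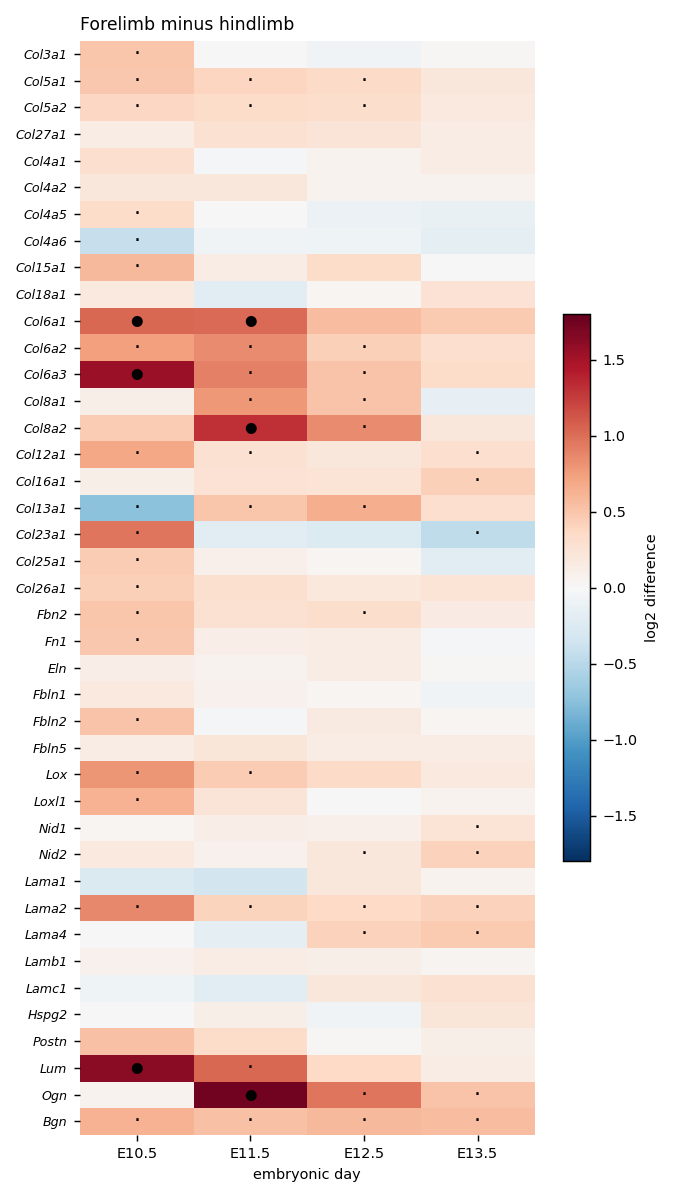
Forelimb minus hindlimb log2 difference for the 41 genes (rows) at 4 stages (columns), red where forelimb is higher and blue where it is lower; a filled circle marks a call (2-fold at an adjusted p under 0.001) and a small dot an adjusted p under 0.05 alone. The 6 circles lie at E10.5 and E11.5, with Lum (1.62) and Col6a3 (1.55) strongest at E10.5 and Ogn (1.74) at E11.5. Most colours, though not all, are paler at E13.5 than at E10.5.

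At E10.5 the called genes were Lum, Col6a3 and Col6a1. Lum read 7.36, 7.76, 8.22, 8.77 and 8.77 in forelimb and 6.06, 6.42, 6.68 and 7.04 in hindlimb, a difference of 1.62 ± 0.24 (3.08-fold, adjusted p = 2.73e-06). Col6a3 read 7.55, 7.72, 7.75, 7.86 and 7.93 against 6.08, 6.19, 6.27 and 6.31, a difference of 1.55 ± 0.14 (2.93-fold, adjusted p = 2.15e-11). The groups do not overlap for either gene. Col6a1 differed by 1.03 ± 0.20 (adjusted p = 0.000307), and this call was lost without forelimb replicate 1 (0.90), whose 6.80 stands above the other four. Col23a1 (0.96 ± 0.10), Lama2 (0.86 ± 0.10), Lox (0.79 ± 0.13), Col6a2 (0.74 ± 0.15) and Col12a1 (0.70 ± 0.08) were higher in forelimb by less than 2-fold, without overlap of the groups. Col13a1 was the clearest in the other direction, at -0.74 ± 0.15 (adjusted p = 0.000528). Without hindlimb replicate 3 the same count of 3 genes was called. On the brightest probe set 8 genes were called, which added Col23a1 (1.11), Col25a1 (1.02), Fbln2 (1.06), Lox (1.08) and Loxl1 (1.20). Among laminins, nidogens and perlecan no gene but Lama2 passed an adjusted p of 0.05 at this stage, with -0.26 for Lama1, 0.04 for Nid1, 0.17 for Nid2, 0.08 for Lamb1, -0.08 for Lamc1, -0.01 for Lama4 and 0.01 for Hspg2.

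At E11.5 the called genes were Ogn, Col8a2 and Col6a1. The Ogn values given above, 9.27 to 9.33 in forelimb and 7.14 to 7.90 in hindlimb, differ by 1.74 ± 0.17 (3.33-fold, adjusted p = 1.92e-09), although at E10.5 the limbs differed by 0.06 ± 0.17. Col8a2 read 5.88, 6.23, 6.38 and 6.68 in forelimb and 4.66, 4.87, 4.90, 4.95 and 5.46 in hindlimb, a difference of 1.32 ± 0.21 (2.5-fold). Col6a1 differed by 1.02 ± 0.20 (adjusted p = 0.000762), and the call was lost in 8 of 9 fits that leave out 1 array. Lum differed by 1.03 ± 0.24 (adjusted p = 0.0046), Col6a3 by 0.91 ± 0.14 and Col6a2 by 0.85 ± 0.15, without a call. With both arrays of conflicting labels left out, Ogn and Col8a2 were still called and Col6a1 was not (1.02). With both placed by those other labels, 0 genes were called at E11.5, with a difference of 1.78 for Ogn (adjusted p = 0.0035) and 1.44 for Col8a2 (adjusted p = 0.0178).

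At E12.5 the widest differences were those of Ogn (0.96 ± 0.16, adjusted p = 6.27e-05) and Col8a2 (0.85 ± 0.20, adjusted p = 0.00408), both under 2-fold, and on the brightest probe set Ogn was called at 1.10 ± 0.17 (adjusted p = 1.48e-05). Hindlimb E12.5 replicate 1 lay apart from its group, low for Col3a1, Col5a1, Col5a2, the 3 collagen VI chains, Col8a2 and Bgn. Its Col8a2 value was 6.19, where the other four lay between 7.34 and 7.74. By E13.5 the 95% intervals were narrow. That of Lum ran from -0.33 to 0.58, that of Col3a1 from -0.13 to 0.18 and that of Postn from -0.32 to 0.53, so that a 2-fold difference lay outside each. Ogn still differed by 0.52 at E13.5, with an interval from 0.18 to 0.85. At an adjusted p under 0.05 in limma forelimb was also higher for Bgn (0.56), Lama4 (0.47), Col16a1 (0.43), Lama2 (0.42) and Nid2 (0.42). The same held for Col12a1 (0.30) and Nid1 (0.24), while Col23a1 was lower (-0.46). All of these were under 2-fold.

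The change from E10.5 to E13.5 differed between the limbs for 3 genes, 1 with the larger value in forelimb and 2 in hindlimb, where 0.291% and 0.627% of all genes were called. Col6a3 rose by 1.22 less in forelimb, a difference of -1.22 ± 0.19 (adjusted p = 9.92e-06), its hindlimb levels being the lower ones at E10.5. Col23a1 gave -1.41 ± 0.14 (adjusted p = 2.02e-09). In forelimb its E10.5 arrays read 8.24, 8.28, 8.33, 8.44 and 8.49 and its E13.5 arrays 7.87, 7.99, 8.07, 8.09 and 8.13, while in hindlimb it went from 7.18, 7.30, 7.54 and 7.56 to 8.30, 8.44, 8.55, 8.55 and 8.61. The limbs changed places over the interval. Col13a1 gave 1.04 ± 0.21 (adjusted p = 0.000473), a call lost in 11 of 19 fits that leave out 1 array. Most members leaned towards the larger rise in hindlimb, 28 of 41, with a median of -0.25 beside 0.03 over all genes. The E10.5 groups enter these differences and the same-stage differences alike, so the 2 sets of values are not independent.

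Other genes that make, process or bind the matrix were read beside the 41. Of 18 remaining collagens 14 were called higher in forelimb and 13 in hindlimb, and none lower in either. They include Col1a1 (3.64 ± 0.19 and 4.42 ± 0.20), the main collagen of tendon and bone, and Col11a1 (3.66 ± 0.12 and 4.08 ± 0.13), of cartilage fibrils. Of 10 further small leucine-rich proteins 7 were called in forelimb and 6 in hindlimb, with Aspn (6.66 ± 0.23 and 5.60 ± 0.24), Epyc (6.16 ± 0.26 and 5.11 ± 0.27) and Kera (6.04 ± 0.18 and 6.33 ± 0.20) near the range of Ogn. Of 14 genes of elastic fibre assembly 8 and 7 were called higher, led by Efemp1 (2.65 ± 0.23 and 3.62 ± 0.24), and of 20 genes of collagen folding and processing 7 and 7, led by Sparc (1.69 ± 0.13) in forelimb and P3h3 (1.87 ± 0.13) in hindlimb. The 12 further basement membrane genes gave 2 higher and 1 lower in forelimb and 3 and 1 in hindlimb, with Smoc2 higher by 3.40 ± 0.14 and 4.85 ± 0.15 and Smoc1 lower, at -1.72 ± 0.11 and -1.75 ± 0.11. Of 21 matrix receptors 1 was called in each limb, Cd44 (1.33 ± 0.08) in forelimb and Itga8 (1.27 ± 0.11) in hindlimb.

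Markers of several cell types moved over the same interval. In forelimb 7 of 8 cartilage markers were called higher, and their mean level went from 6.93 to 7.28 at E10.5 to 10.26 to 10.61 at E13.5. Of 8 skeletal muscle markers 7 were higher (4.58 to 6.11, then 10.29 to 10.39), of 5 tendon markers 4 (4.68 to 4.95, then 7.31 to 7.66) and of 6 pericyte and smooth muscle markers 4 (5.51 to 5.90, then 7.02 to 7.11). Of 4 perichondrium and osteoblast markers 3 were higher (5.36 to 5.63, then 7.64 to 8.10), of 5 macrophage markers 4 (5.82 to 6.17, then 7.24 to 7.66) and of 7 surface ectoderm markers 4 (7.41 to 7.71, then 8.47 to 8.88). Of 8 limb mesenchyme markers 3 were lower (8.86 to 9.01, then 7.97 to 8.08). Of 7 endothelial markers 0 were called, and their mean level lay between 7.81 and 8.11 at E10.5, between 7.67 and 7.75 at E11.5 and between 7.97 and 8.24 at E13.5. Of 5 erythroid markers 4 were lower, and their level fell from between 11.78 and 12.24 to 9.71 at most. In hindlimb 7 of 8 cartilage, 8 of 8 muscle, 3 of 5 tendon, 3 of 6 pericyte, 2 of 4 perichondrium, 3 of 5 macrophage and 4 of 7 ectoderm markers were higher, and 1 of 8 mesenchyme, 1 of 7 endothelial and 4 of 5 erythroid markers lower. Kera, Col1a1, Col2a1, Col9a1 and Col11a1 stand in a marker list as well as in a list above. Some markers were also called higher in forelimb than in hindlimb, apart from the limb type gene Tbx5. At E10.5 these were 2 of 8 cartilage (Col9a1 and Col2a1), 1 of 5 tendon, 1 of 8 skeletal muscle (Myf5, 2.12) and 1 of 4 perichondrium markers. At E11.5 they were 3 of 8 cartilage, 1 of 8 skeletal muscle and 1 of 7 surface ectoderm markers. At E12.5 they were 2 of 8 cartilage, 1 of 8 skeletal muscle, 1 of 7 surface ectoderm and 1 of 5 liver markers. At E13.5 they were 1 of 4 perichondrium, 1 of 5 tendon and 2 of 8 skeletal muscle markers. The part of these cell types in the matrix changes was not tested.

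In whole embryo the same interval gave 25 genes higher and 1 lower, where 9.88% and 1.30% of all genes were called, with a median of 1.23 over the 41 genes. Of the 24 genes called in both limbs, 22 were also called in whole embryo, Lama1 (-1.73 ± 0.19) among them. The exceptions were Fn1 and Col4a5, at -0.20 ± 0.21 and 0.33 ± 0.15. On its brightest probe set Fn1 rose by 0.99 ± 0.12 in whole embryo, just under 2-fold. Ogn rose by 5.45 ± 0.26 in whole embryo, from 4.24 and 4.43 to 9.76 and 9.82, and Col6a1 by 5.15 ± 0.30. Col4a1 (1.23 ± 0.20), Col4a2 (1.05 ± 0.25) and Fbln2 (1.20 ± 0.16) were called there and in neither limb, although Fbln2 was called in both limbs on its brightest probe set. Rises of fibrous matrix genes were thus measured in the body as a whole as well as in the limb.

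A fixed offset between the array sets cancels where the change in limb is set against the change in whole embryo. Forelimb rose more than whole embryo for 4 genes and less for 0, where 2.47% and 9.87% of all genes were called, and hindlimb for 8 and 0 (2.50% and 9.49%). Over all genes the median was -0.14 and -0.16, and over the 41 genes 0.01 and 0.12. Postn gave 2.57 ± 0.39 and 2.99 ± 0.40, Lum 1.96 ± 0.42 (lost in 2 of 14 fits that leave out 1 array) and 3.46 ± 0.43, and Ogn 2.43 ± 0.31 and 1.97 ± 0.31. In hindlimb Lox (1.20 ± 0.23), Col4a5 (1.18 ± 0.18), Col23a1 (1.06 ± 0.19) and Col8a2 (1.54 ± 0.38, adjusted p = 0.000987) were called too, the last just under the threshold and lost in 11 of 13 fits that leave out 1 array. Fn1 was called in both limbs, at 1.85 ± 0.25 and 2.37 ± 0.25, but its 2 probe sets went different ways, and on the brighter one the values were 0.18 and 0.78. On the brightest probe set of each gene, Col5a1 and Col12a1 were called higher too, at 1.06 and 1.88 in forelimb and 1.11 and 1.84 in hindlimb. On the same probe sets Col25a1 (-1.20), Col26a1 (-1.64), Fbln1 (-1.41) and Fbln2 (-1.43) were called lower in forelimb. Across the array sets, Lum lay at 9.01 and 9.33 in whole embryo at E10.5, above every E10.5 limb array, and at 11.65 and 11.86 at E13.5, below every E13.5 limb array. Ogn read 4.24 and 4.43 in whole embryo at E10.5, within the range of the forelimb arrays. These comparisons share the whole-embryo arrays.

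Levels in limb and whole embryo of the same stage were compared last. At E10.5 forelimb was higher for 10 genes and lower for 2, where 10.49% and 3.44% of all genes were. The E11.5 counts were 14 and 1 (11.67% and 3.64% of all genes), the E12.5 counts 9 and 0 (8.52% and 5.44%) and the E13.5 counts 10 and 0 (5.54% and 8.12%). Hindlimb at E10.5 was higher for 4 and lower for 4 (9.77% and 3.41%), and its later counts in stage order were 10 and 2 (11.76% and 3.95%), 6 and 1 (7.11% and 5.43%), and 8 and 2 (6.10% and 8.35%). Col23a1, Fbn2, Nid2, Lama4, Lamb1 and Lamc1 were higher in forelimb at all 4 stages, and Nid2 and Lama4 in hindlimb. On the brightest probe set of each gene, Col23a1, Fbn2, Lama4 and Lamb1 were called at no stage from E10.5 on in either limb. In forelimb at E11.5 they differed by 0.45, 0.69, -0.03 and 0.65 on that probe set. Lamc1 was called on it at E10.5 and E11.5 only. Nid2 read 8.96, 9.05, 9.05, 9.08 and 9.08 in forelimb at E10.5 and 6.90 and 7.11 in whole embryo, a difference of 2.04 ± 0.08, and 2.12 ± 0.08, 1.90 ± 0.08 and 2.05 ± 0.08 at the later stages. Its hindlimb differences were 1.87, 2.03, 1.69 and 1.63.

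The probe sets of a gene disagreed in this comparison. For Nid1 the brightest probe set lay at 10.27 in E10.5 forelimb and 10.29 in whole embryo, while another lay at 8.25 and 5.07. For Lama4 the brighter probe set differed by 0.62 at E10.5 and the dimmer by 2.87, and for Lamb1 the 4 probe sets differed by 0.20, 0.87, -0.13 and 3.40. At E9.5, within 1 array set, the dimmer Lama4 probe set and that of Nid1 differed by -0.04 and 0.50 between forelimb and whole embryo, and in forelimb they read 2.84 and 2.66 lower at E9.5 than at E10.5. Of the 29 genes with 2 or more probe sets, the forelimb minus whole embryo difference at E13.5 varied by more than 1 between probe sets for 15 and had both signs for 11. On the brightest probe set alone, the genes still called in the same direction at E13.5 were Nid2 and Ogn in forelimb, and Nid2, Ogn, Col13a1 and Bgn in hindlimb. Other genes were called at E13.5 on that probe set only. In forelimb Col12a1 (2.14), Fbln2 (1.32) and Col27a1 (1.10) were higher. In hindlimb Col12a1 (1.55), Fbln2 (1.15) and Col25a1 (1.06) were higher and Eln (-1.04) was lower. Fbln2 was called higher on that probe set at every stage from E10.5 in both limbs. Ogn was higher than in whole embryo by 3.15 ± 0.23, 2.82 ± 0.22 and 2.33 ± 0.22 at E11.5 to E13.5 in forelimb and by 1.41 ± 0.22, 1.86 ± 0.22 and 1.81 ± 0.22 in hindlimb, the first hindlimb value falling to 0.75 without whole embryo E11.5 replicate 2.

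**Figure D4:**
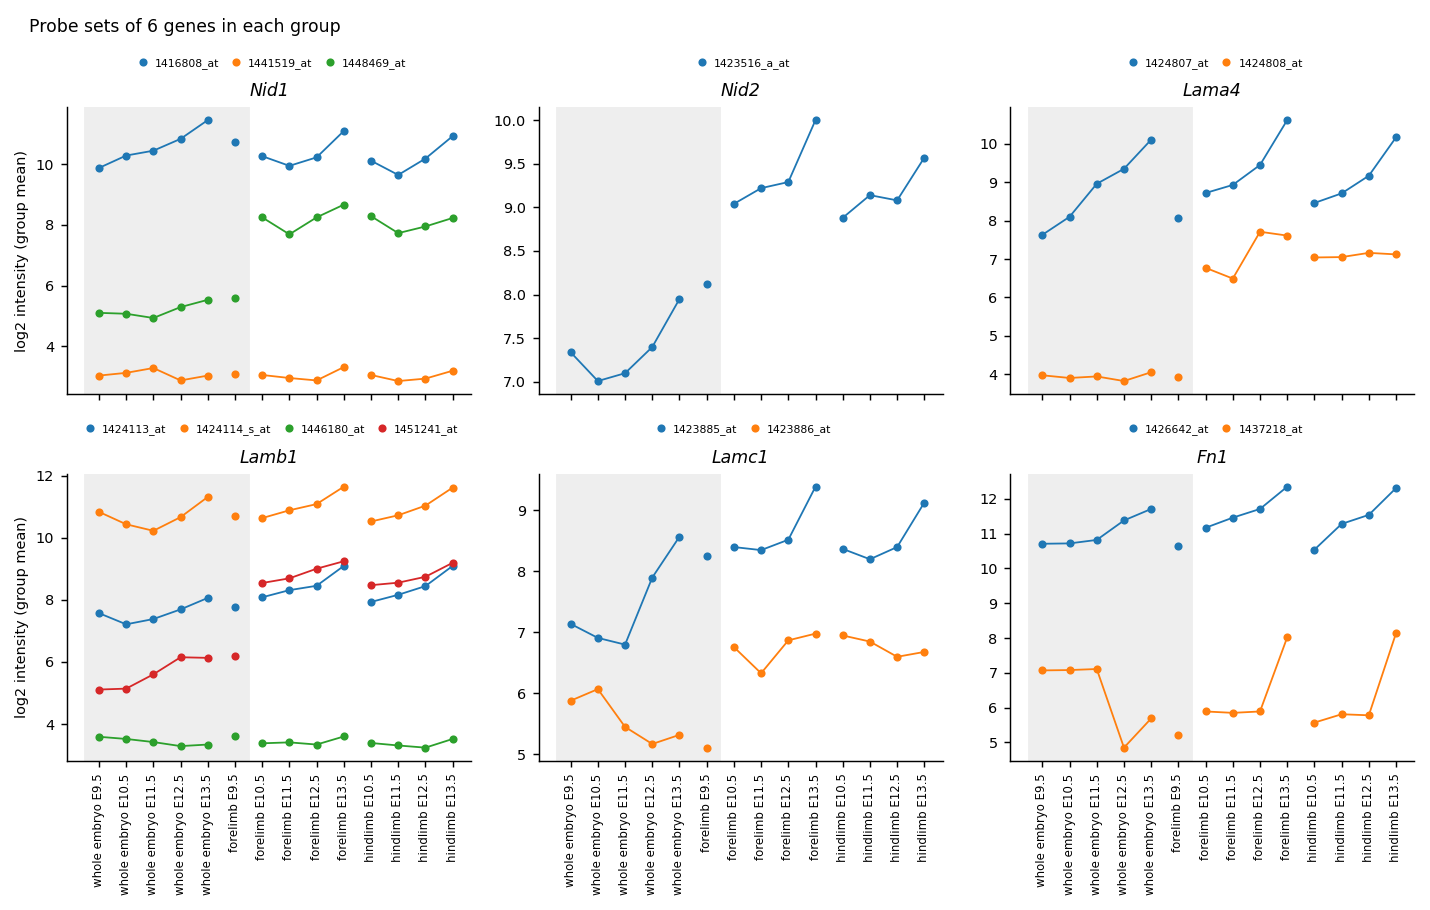
Group mean log2 intensity of each probe set of 6 genes across the 14 groups (horizontal axis; whole embryo, forelimb, then hindlimb, each by stage), with lines joining the stages of a tissue and shading over the groups of the array set that holds whole embryo and E9.5 forelimb. Single probe sets of Nid1, Lama4 and Lamb1 step up at the edge of the shading, to 8.25 from 5.07 for Nid1 at E10.5, while the brightest probe set of each gene does not, and Nid2 has 1 probe set only.

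Genes called lower in limb than in whole embryo were fewer than those called higher, except in hindlimb at E10.5, where the counts were equal. At E10.5 the difference of Postn was -1.67 ± 0.27 in forelimb and -2.20 ± 0.28 in hindlimb, and in hindlimb those of Lum, Col6a3 and Col8a2 were -2.62 ± 0.31, -1.29 ± 0.18 and -1.26 ± 0.28. Col6a3 was also lower in hindlimb at E11.5 (-1.01 ± 0.17), and Lama1 in forelimb at E11.5 (-1.01 ± 0.17). Bgn was lower in hindlimb at E12.5 (-1.17 ± 0.17) and E13.5 (-1.37 ± 0.17), on its brightest probe set as well. Col13a1 was lower in E10.5 forelimb (-1.26 ± 0.19) and in hindlimb at E11.5 and E13.5 (-1.24 ± 0.19 and -1.21 ± 0.19). Col13a1, Postn, Lum, Col6a3 and Col8a2 have 1 probe set each. On the brightest probe set alone Hspg2 was called lower at E10.5 and E12.5, at -1.16 and -1.72 in forelimb and -1.02 and -1.24 in hindlimb. Lox (-1.45) and Col4a5 (-1.23) were called lower in hindlimb at E10.5 on their brightest probe sets.

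At E9.5 forelimb and whole embryo lie in the same array set. Forelimb was higher for 2 genes and lower for 1, where 2.08% and 1.61% of all genes were called. Col26a1 read 7.09, 7.15 and 7.20 in forelimb and 5.52 and 6.57 in whole embryo, a difference of 1.10 ± 0.17, and Fbln1 differed by 1.01 ± 0.18. Lum read 6.64, 8.17 and 8.53 against 9.48 and 9.56, a difference of -1.74 ± 0.32. These rest on a loose whole-embryo pair: Col18a1 read 8.75 and 10.65 on its 2 arrays, and Col4a2 8.43 and 10.07. Without whole embryo E9.5 replicate 2, 0 genes were called, and without replicate 1, 9. Nid2 differed by 0.78 in this comparison, against 2.04 a day later across the array sets.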

How the data were processed

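Amplified and biotin-labelled RNA was hybridised to Affymetrix whole-genome mouse arrays. The authors normalised all arrays together by RMA at default settings and deposited intensity values on a linear scale, after correcting a blemish on replicate 2 of whole embryo E12.5. Its version is not given in the sources used here. Intensities were log2-transformed here (range 2.29 to 14.79), and of 45101 probe sets, 34958 assigned to a single symbol were averaged over 18194 genes, while 932 with several symbols were left out. All 51 arrays were fitted in limma 3.58.1 (R 4.3.3) by group, with 37 residual degrees of freedom, after a test on simulated data. A gene was called at a change of 2-fold or more and a Benjamini-Hochberg adjusted p under 0.001, within each comparison over all genes. The members and gene lists were chosen with earlier results of these data known. Statistics are given for up to 12 called members of largest change in a comparison, for members of shared complexes, and for others where they fill a class. Alternatives were quantile normalisation between arrays, the probe set of highest mean, leaving out dim probe sets, fitting only the groups compared, the adjusted p under 0.05 with no fold, other placements of the 2 arrays with conflicting labels, a replicate block and leaving out each array. The number of arrays limits the precision. Limb replicates of a stage came from the same litter, so p-values measure the spread between littermates.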

Additional observations from a re-analysis of the deposited data

Results flagged for a closer look

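Of 328 groups of 4 or 5 arrays examined over the 41 genes, 27 held an array far from the rest, and chance alone marks about 1 in 20 groups. Replicate 1 of hindlimb E12.5 accounted for 9 of them. It read low for Col3a1 (11.87), Col5a1 (9.05), Col5a2 (11.15), Col6a1 (8.10), Col6a2 (8.62), Col6a3 (8.63), Col8a2 (6.19) and Bgn (8.48), and high for Col18a1 (9.70). The other arrays of that group lay at 12.22 to 12.28 for Col3a1 and at 8.97 to 9.11 for Col6a1. Replicate 2 of the same group read low for Col4a1 (10.20) and Lamc1 (7.17). At E13.5 in hindlimb, replicate 3 read high for Col4a5 (8.60) and replicate 4 low for Nid1 (7.24) and Lamc1 (7.46). In hindlimb at E10.5, replicate 1 read high for Col8a2 (4.29), and replicate 3 low for Eln (5.21) and high for Lama1 (7.82).

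In forelimb at E10.5, replicate 1 read high for Col6a1 (6.80) and Col6a2 (7.14), and replicate 2 low for Nid2 (8.96). At E11.5 replicate 1 read low for Fbln1 (8.76), and replicate 3 low for Nid1 (6.69) and Lama4 (7.08). At E12.5 replicate 1 read high for Col18a1 (9.72). At E13.5 replicate 3 read high for Lamc1 (8.32), replicate 4 low for Nid2 (9.90) and replicate 5 low for Col13a1 (5.84).

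Changes from E10.5 to E13.5 that differed between tissues in limma's test of the difference were noted too. Against whole embryo these were Fn1 (1.85), Postn (2.57), Lum (1.96) and Ogn (2.43) in forelimb. In hindlimb they were Col4a5 (1.18), Col8a2 (1.54), Col23a1 (1.06), Fn1 (2.37), Lox (1.20), Postn (2.99), Lum (3.46) and Ogn (1.97). Between the limbs they were Col6a3 (-1.22), Col13a1 (1.04) and Col23a1 (-1.41), as forelimb minus hindlimb.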

How the results depend on the processing

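Of 2630 values of called members under the alternatives that kept the fold threshold, 2436 kept their direction and call, 188 lost the call and 6 reversed. Fits that leave out 1 array made up most of these values, with 1576 kept and 89 lost. With the probe set of highest mean 150 kept direction and call and 43 lost the call. The 6 reversals all came with the probe set of highest mean, in limb against whole embryo, and the cause was not tested: Nid1 in forelimb at E10.5 (-0.02) and E13.5 (-0.36), Col23a1 in forelimb at E13.5 (-0.08), and Lama4 at E11.5 in forelimb (-0.03) and at E11.5 and E12.5 in hindlimb (-0.26 and -0.18). With that probe set the counts of called members became 8 at E10.5 and 1 at E12.5 between the limbs, 5 at E13.5 in forelimb against whole embryo, 9 for the change in forelimb minus that in whole embryo, and 5 for the change between the limbs. These counts take higher and lower calls together. Leaving out dim probe sets gave 7 between the limbs at E10.5, 12 in hindlimb against whole embryo at E12.5, and 5 for the change between the limbs. Fitting only the groups compared gave 1 between the limbs at E10.5 and at E11.5, and 0 at E9.5 in forelimb against whole embryo, with fewer arrays to estimate the spread.

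With no fold threshold and an adjusted p under 0.05, much of the array passed as well. The counts were 39 of 41 in forelimb from E10.5 to E13.5 (58.28% of all genes), 26, 20 and 34 over its consecutive steps (21.56%, 10.33% and 48.96%), and 30, 25 and 35 over those in hindlimb (29.55%, 16.74% and 37.90%). Between the limbs they were 22, 14, 13 and 9 in stage order (14.02%, 4.37%, 9.94% and 6.46%). Against whole embryo they were 29, 30, 29 and 27 in forelimb and 28, 31, 28 and 26 in hindlimb (52.62% to 61.83% of all genes), and 19 at E9.5 (32.73%). For the changes they were 20 (forelimb minus whole embryo, 46.49%), 17 (hindlimb minus whole embryo, 42.94%) and 13 (between the limbs, 12.95%). Leaving out both arrays of conflicting labels moved no count by over 1.5 times and ended 3 calls. Placing both by their other labels left 0 calls in forelimb from E11.5 to E12.5, where Col6a1 read 0.73, Lox 0.81, Ogn 0.76, Postn 0.96 and Col8a2 1.25, and 0 between the limbs at E11.5.

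Leaving out 1 array at a time gave 0 to 9 calls at E9.5, with 0 lacking replicate 2 and 9 lacking replicate 1 of whole embryo. It gave 24 to 25 and 25 to 28 from E10.5 to E13.5 in forelimb and hindlimb, and 22 to 28 in whole embryo. Between the limbs it gave 2 to 4 at E10.5, 2 to 3 at E11.5, 0 to 1 at E12.5, where the call came without forelimb replicate 1, and 0 at E13.5. For the changes it gave 3 to 6, 6 to 8 and 2 to 4, in the order above. The other ranges were 9 to 11, 5 to 7 and 10 to 14 over the forelimb steps, 13 to 16, 8 and 13 to 15 over the hindlimb steps, and between 6 and 17 in limb against whole embryo.

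Quantile normalisation moved no count by over 1.5 times and ended 26 calls, mostly against whole embryo. The median over all genes went from 0.09 to 0.02 in forelimb against whole embryo at E11.5, where the members' median went from 0.78 to 0.43, and from -0.14 to -0.07 in the change in forelimb minus whole embryo, where the members' median went from 0.01 to 0.32. Replicate numbers did not pair limbs of an embryo by the data: of 18 same-numbered pairs, 8 had a correlation of deviations over 0.1 (range -0.11 to 0.35), and 5 matched their own number best. A replicate block on the limb arrays gave 3, 3, 0 and 0 calls between the limbs and 2 for the change between them, with Col13a1 at 0.99. Whole embryo rests on 2 arrays a stage, and genes near the background of the array allow no firm fold change.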

Other observations

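The 2 probe sets shared by Loxl2, a lysyl oxidase, and Gm21451 were left out of all comparisons. On the brighter of them, the mean log2 intensity was 9.52 ± 0.27 (SD, n = 5) at E10.5 and 10.68 ± 0.12 (n = 5) at E13.5 in forelimb, and 8.90 ± 0.21 (n = 4) and 10.55 ± 0.11 (n = 5) in hindlimb. On the dimmer one it was 7.11 ± 0.25 and 7.74 ± 0.18 in forelimb, and 6.59 ± 0.33 and 7.60 ± 0.40 in hindlimb. The E10.5 and E13.5 arrays of the brighter probe set did not overlap in either limb, with the highest E10.5 value at 9.87 and the lowest E13.5 value at 10.39.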
